A study of Mus musculus with 8 samples.

Results

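Th1 factors and Th1 cytokine genes were followed in regulatory T cells (Tregs), the CD4+ cells that restrain other immune cells and carry the transcription factor FoxP3. The 9 members were fixed by name, and each was read from the probe set that the platform annotates to its symbol alone. There was 1 such probe set for each of the 9, among 19937 genes with a probe set of 1 symbol. The study sorted FoxP3+ Tregs from mice of 2 genotypes, wild type (WT) and Bcl6-/- (KO), stimulated them through CD3 and CD28 for 16 h, and hybridised labelled total RNA, 100 ng per array, to 8 Affymetrix whole-transcript arrays. Both groups held 4 arrays, made up of preparations 1 and 2, each with an array A and an array B. All arrays therefore share the sort and the stimulation, and no array shows the cells at rest. The labels give no age, strain or tissue of the mice, nor which part of Bcl6 was removed. They also leave unstated what sets preparations and letters apart, such as different mice or repeat extractions, so the p-values here speak for the spread of these arrays, possibly a technical one. In bulk RNA, fewer cells of a type and less RNA per cell cannot be told apart, and precision is limited by having 8 arrays.

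Th1 cells are the helper T cells that make interferon gamma, the product of Ifng, and drive the response to intracellular microbes. IL-12 binds a receptor of 2 chains, encoded by Il12rb1 and Il12rb2, and activates the transcription factor STAT4. The T-box factor T-bet, the product of Tbx21, then acts with RUNX3 and HLX to open Ifng, and its relative Eomesodermin does the same mainly in CD8 T cells and natural killer cells. A fraction of Tregs takes up T-bet during type 1 inflammation and keeps FoxP3. BCL6 is a transcriptional repressor of follicular helper T cells that is known to oppose other helper programs and can bind T-bet.

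The promoters of 3 members are shown because 2 of them hold a sequence that STAT factors read and that resembles the BCL6 site, while that of Tbx21, the member with the widest range of levels, does not. The sequence searched was TTCNNNGAA, which reads the same on both strands, in the 250 bases before the start site, from RefSeq on GRCm38.p6. It occurred in 7.02% of 32851 such windows of all genes. Of the members, 8 had an entry, with 11 windows in all, and 2 windows held a match, those of Ifng and Il12rb2. A T-box sequence, AGGTGTGA, searched on both strands, occurred in 1.12% of all windows and in 0 of the 11. Windows are written 5′ to 3′ in the direction of the gene, with the match in capitals. That of Ifng is chr10:118440796-118441045 on the plus strand, that of Il12rb2 chr6:67376189-67376438 on the minus strand, and that of Tbx21 chr11:97115332-97115581 on the minus strand.
Ifng: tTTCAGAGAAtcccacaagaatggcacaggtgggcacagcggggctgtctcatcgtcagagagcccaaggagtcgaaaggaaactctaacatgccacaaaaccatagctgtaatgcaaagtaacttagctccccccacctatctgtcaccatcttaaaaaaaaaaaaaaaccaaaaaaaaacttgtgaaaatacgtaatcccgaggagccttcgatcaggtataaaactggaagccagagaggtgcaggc
Il12rb2: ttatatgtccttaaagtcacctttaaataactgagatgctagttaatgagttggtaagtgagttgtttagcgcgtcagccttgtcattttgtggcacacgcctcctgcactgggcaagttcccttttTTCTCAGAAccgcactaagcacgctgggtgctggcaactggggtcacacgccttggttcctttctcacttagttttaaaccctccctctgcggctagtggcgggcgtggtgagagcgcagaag
Tbx21: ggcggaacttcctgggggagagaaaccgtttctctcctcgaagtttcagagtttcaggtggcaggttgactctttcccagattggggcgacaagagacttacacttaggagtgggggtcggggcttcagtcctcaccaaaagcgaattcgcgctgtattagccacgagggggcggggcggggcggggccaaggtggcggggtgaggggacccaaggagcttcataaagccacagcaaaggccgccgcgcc
The match in Ifng spans 249 to 241 bases before the start site and that in Il12rb2 123 to 115 bases before it. These are matches of letters, not measured sites, and the arrays hold no data on binding.

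Features of the arrays as a whole touch every result below. The SD of log2 expression over all probe sets was 1.84 to 1.87 in the KO 1 arrays, 1.61 and 1.65 in the KO 2 arrays and 1.56 to 1.70 in the WT arrays, with the highest WT value in WT 1B. The median was 6.80 and 6.84 in KO 1 and 6.97 to 7.13 in the other arrays. Values after quantile normalization, which gives all arrays 1 distribution, are printed beside the deposited ones. Bcl6 itself was 8.72 ± 0.24 in the KO and 8.13 ± 0.25 in the WT arrays (log2, SD, n = 4 each), each KO array above each WT array, and with the deleted part not stated this does not check the labels. Averaged over Eif2s3y, Kdm5d and Uty, genes of the Y chromosome, log2 expression ran from 4.62 to 4.80 in KO and from 6.94 to 8.30 in WT, and this difference and the genotype cannot be told apart. KO and WT were compared with limma over all 19937 genes, with the preparation as a random block and Benjamini-Hochberg adjustment, and a gene was called at an adjusted p under 0.05.

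The members fell into 3 patterns. Il12rb1, Hopx and Runx3 had every KO array above every WT array, with both KO 2 arrays below both KO 1 arrays. Tbx21, Stat4 and Ifng had both KO 1 arrays above all other arrays and both KO 2 arrays within the WT range. Eomes, Hlx and Il12rb2 had overlapping groups and KO minus WT differences of -0.14 to 0.06 log2. None of the 9 was called, in either direction, against 0.12% of all genes called higher and 0.015% called lower. At an unadjusted p under 0.05, 4 members were higher (Il12rb1, Hopx, Runx3 and Tbx21) and 0 lower, against 5.65% and 0.542% of all genes. The median member differed by 0.43 log2, beside -0.06 over all genes, with 0.72 in KO 1 and 0.08 in KO 2. After quantile normalization that median was 0.34 and limma again called 0 of 9, while it called 0.607% of all genes higher.

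**Figure D1:**
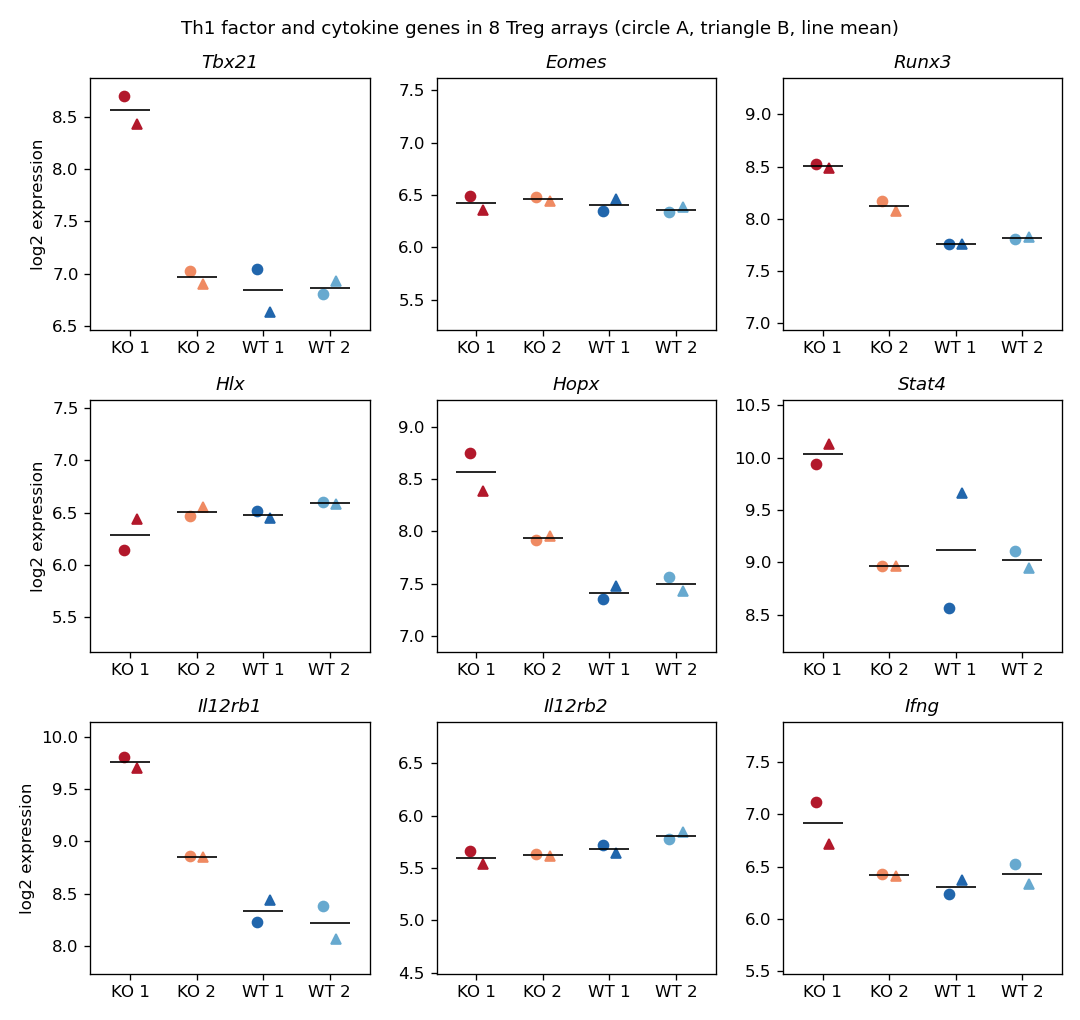
Log2 expression (vertical axis, the same height of scale in each panel but not the same origin) of the 9 members in KO 1, KO 2, WT 1 and WT 2; circles are arrays A, triangles arrays B and lines the means of a preparation. Il12rb1, Hopx and Runx3 step down from KO 1 to KO 2 to WT, Tbx21 and Ifng are high in KO 1 alone, and Eomes, Hlx and Il12rb2 overlap between groups.

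Tbx21 (probe set 10390328) encodes T-bet, the factor that directs Th1 differentiation. Its log2 level was 8.69 and 8.43 in KO 1A and 1B, 7.03 and 6.91 in KO 2A and 2B, 7.04 and 6.64 in WT 1A and 1B, and 6.80 and 6.93 in WT 2A and 2B. The KO 1 arrays thus stood apart, and the KO 2 arrays lay within the WT range. KO minus WT was 0.91 log2 (SE 0.40, limma adjusted p = 0.701), a mean over preparations that differ by more than that. With the array SD as a covariate it was 0.13. The SD was highest in the KO 1 arrays, so that fit cannot tell the covariate from a rise in KO 1 alone. KO 1 was 3.27-fold above the WT mean and KO 2 1.08-fold.

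Runx3 (probe set 10509030) encodes a Runt-domain factor that acts with T-bet at Ifng and silences Cd4 and Il4 in other T cells. Its log2 level was 8.53 and 8.48 in KO 1, 8.17 and 8.07 in KO 2, 7.76 and 7.76 in WT 1, and 7.80 and 7.82 in WT 2. The 4 WT arrays lay closer together than those of the other members, with an SD of 0.03, and all KO arrays were above them. KO minus WT was 0.53 log2 (SE 0.22, limma adjusted p = 0.701). KO 1 was 0.72 and KO 2 0.34 above the WT mean.

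Hopx (probe set 10530819) encodes a small homeodomain protein that does not bind DNA by itself and is known from Th1 effector cells and from induced Tregs. Its log2 level was 8.75 and 8.38 in KO 1, 7.92 and 7.96 in KO 2, 7.35 and 7.47 in WT 1, and 7.56 and 7.43 in WT 2. Groups did not overlap. KO minus WT was 0.80 log2 (SE 0.26, limma adjusted p = 0.561), a 1.74-fold difference. KO 1 was 1.12 and KO 2 0.48 above the WT mean.

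Eomes (probe set 10589994), the T-box relative of Tbx21, showed none of its pattern in the deposited values: the log2 level was 6.49 and 6.36 in KO 1, 6.48 and 6.44 in KO 2, 6.35 and 6.46 in WT 1, and 6.33 and 6.38 in WT 2. All 8 values lay within 0.16 log2 of each other. KO minus WT was 0.06 (SE 0.18, limma adjusted p = 0.844). Hlx (probe set 10360834), a homeobox factor that T-bet induces, was 6.14 and 6.43 in KO 1, 6.46 and 6.55 in KO 2, 6.51 and 6.45 in WT 1, and 6.60 and 6.59 in WT 2. Its groups overlapped, with KO 1A the lowest array, and KO minus WT was -0.14 (SE 0.20, limma adjusted p = 0.731). The deposited values hold no detection call, so it is not known whether probe sets with so narrow a range measured transcript above background.

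Il12rb1 (probe set 10572497) encodes the receptor chain that IL-12 shares with IL-23. Its log2 level was 9.81 and 9.70 in KO 1, 8.86 and 8.85 in KO 2, 8.23 and 8.44 in WT 1, and 8.38 and 8.06 in WT 2. The genotypes differed by 1.03 log2 (KO minus WT, SE 0.30, limma adjusted p = 0.448), a 2.04-fold difference with no overlap between groups. It was the largest of the 9 members as deposited, while after quantile normalization those of Il12rb1 and Tbx21 were both 0.77. KO 1 was 1.48 and KO 2 0.58 above the WT mean. Il12rb2 (probe set 10545135) encodes the chain that is particular to the IL-12 and IL-35 receptors and that carries the docking site of STAT4. Its log2 level was 5.66 and 5.54 in KO 1, 5.64 and 5.62 in KO 2, 5.72 and 5.64 in WT 1, and 5.77 and 5.85 in WT 2. The probe sets of the receptor's chains thus differed in pattern: KO minus WT of Il12rb2 was -0.13 (SE 0.15, limma adjusted p = 0.701), with KO 1A the only KO array above the lowest WT array. All 8 values of Il12rb2 were below log2 6. Without a detection call it is not known whether they measured transcript above background. The difference between the chains was not tested.

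Stat4 (probe set 10346168), which relays the IL-12 signal, was 9.94 and 10.13 in KO 1 and 8.97 and 8.96 in KO 2, on the log2 scale. In WT it was 8.57 and 9.66 in preparation 1 and 9.10 and 8.95 in preparation 2. Arrays A and B of WT 1 thus differed by 1.10 log2, more than KO 1 differed from the WT mean (0.96), and WT 1B was also the WT array with the widest spread of values. KO minus WT was 0.43 (SE 0.45, limma adjusted p = 0.701). Its sign turned to -0.11 without the KO 1 arrays and to -0.20 with the array SD as a covariate. It was 0.17 without WT 1A and 0.69 without WT 1B.

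Ifng (probe set 10366586), the cytokine itself, was 7.12 and 6.71 in KO 1, 6.43 and 6.41 in KO 2, 6.24 and 6.37 in WT 1, and 6.53 and 6.33 in WT 2, on the log2 scale. The KO 1 arrays were the highest and the KO 2 arrays lay within the WT range. KO minus WT was 0.30 (SE 0.24, limma adjusted p = 0.701), smaller than the gap of 0.41 between KO 1A and KO 1B. It was 0.18 without KO 1A and 0.04 with the array SD as a covariate. In KO 1 the mean was 1.47-fold and in KO 2 1.04-fold that of WT.

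Every KO array was above every WT array in 3 of 9 members (Il12rb1, Hopx and Runx3), beside 6.67% of all genes. The same 3 were those in which both KO 2 arrays lay above all WT arrays. In 6 members both KO 1 arrays lay above all WT arrays and above both KO 2 arrays, beside 32.9% of all genes.

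The KO preparations were then compared with each other and with WT in a limma fit with 1 mean for each preparation. Its error is the spread between arrays A and B. Over all probe sets, WT 1A correlated less with its partner WT 1B (Pearson r = 0.968) than with WT 2B of the other preparation (r = 0.994). The preparation label, which sets this error and the random block, thus did not always group the most similar arrays. Against KO 2, 6 of 9 members were higher in KO 1 (Tbx21, Il12rb1, Stat4, Hopx, Ifng and Runx3) and 0 lower. Of all genes 27.7% were called higher in this contrast, and 6184 of 19937 were called lower. Tbx21 differed most, by 1.60 log2 (SE 0.18, limma adjusted p = 2.2e-04), followed by Stat4 with 1.07 (SE 0.28, adjusted p = 0.0099) and Il12rb1 with 0.90 (SE 0.18, adjusted p = 0.00346). Runx3 was close to the threshold, with 0.38 (SE 0.15, adjusted p = 0.044). The same 6 members were higher in KO 1 than in WT and 0 lower, beside 30.4% and 37.4% of all genes. In KO 2 against WT limma called 0 of 9, beside 0.687% of all genes called higher and 0.115% lower. There the limma adjusted p was 0.161 for Il12rb1, 0.270 for Hopx and 0.541 for Runx3. Both of these comparisons use the same WT arrays.

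Quantile normalization separated the members further. Of the 6 members higher in KO 1 than in KO 2, only Tbx21 and Ifng were still called, beside 13.5% of all genes. Tbx21 was 1.39 log2 higher in KO 1 (limma adjusted p = 9.1e-04) and Ifng 0.75 (limma adjusted p = 0.0196). For Ifng, KO 1 minus KO 2 had been 0.50 as deposited. That difference also moved up in the members of narrow range, from -0.04 to 0.31 for Eomes, -0.22 to 0.13 for Hlx and -0.03 to 0.28 for Il12rb2. The cause of this shift was not tested. For Runx3 the preparations came together, with 0.36 above WT in KO 1 and 0.33 in KO 2. Il12rb1 was 0.98 and 0.55 above WT, and Hopx 0.81 and 0.54. The KO minus WT differences over both preparations were then 0.77 for Il12rb1 (SE 0.16, limma adjusted p = 0.073) and 0.68 for Hopx (SE 0.15, limma adjusted p = 0.0914), short of the threshold. On this scale 6 members were higher in KO 1 than in WT, beside 22.6% of all genes, with Eomes (0.36, limma adjusted p = 0.0401) in place of Stat4 (0.45, limma adjusted p = 0.0975), and 0 in KO 2, beside 0.973%. Hlx and Il12rb2 had KO minus WT differences of 0.01 each, against values below 0 as deposited.

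**Figure D2:**
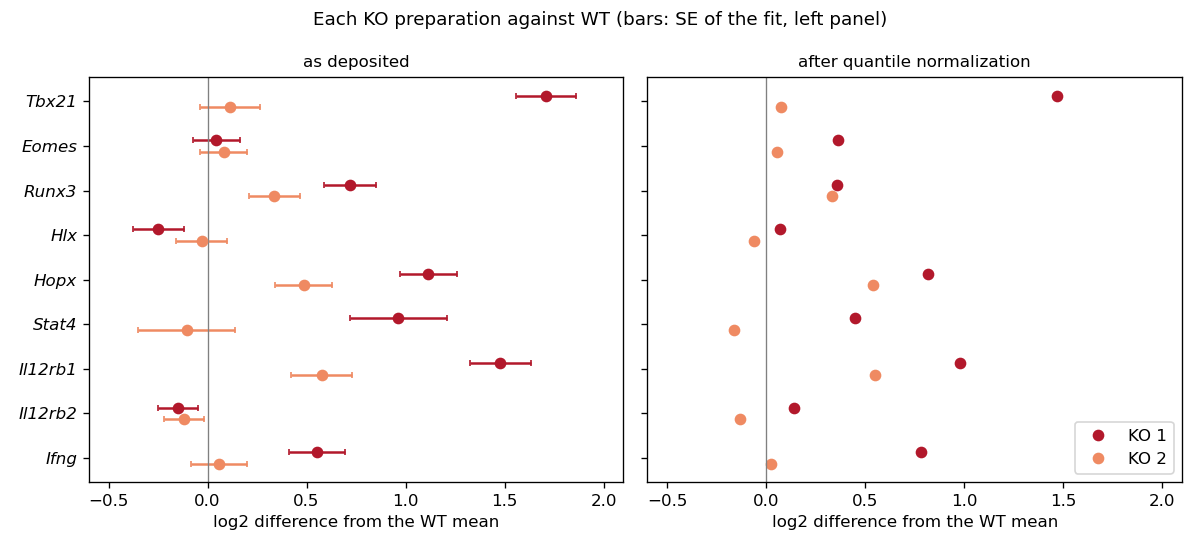
Log2 difference of KO 1 and KO 2 from the WT mean (horizontal axis) for the 9 members, as deposited (left, with the SE of the fit) and after quantile normalization (right). Tbx21 keeps a gap between KO 1 and KO 2 on both scales, with 1.71 and 0.11 as deposited, while for Runx3 the 2 points meet after quantile normalization.

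Patterns over the 8 arrays were shared with many genes. Among 8159 other genes with an SD of at least 0.3 log2, the gene most like Tbx21 was Il4, the Th2 cytokine (Pearson r = 0.995), and that most like Il12rb1 was Mfsd10 (r = 0.998). Incenp was most like Runx3 (r = 0.998), Coro2a most like Hopx (r = 0.996), Esco1 most like Stat4 (r = 0.997) and Lyrm2 most like Ifng (r = 0.987). Il12rb1 had an r over 0.95 with 1293 genes, Tbx21 with 499 and Ifng with 84. The 3 members of narrow range had lower best values, 0.974 for Hlx with Apol10a, 0.873 for Il12rb2 with Ang4 and 0.749 for Eomes with Cdc25b. Over the 6 arrays without KO 1, the r of Tbx21 with Il4 was 0.862 and that of Ifng with Lyrm2 0.876, while those of Il12rb1, Runx3, Hopx and Stat4 with the genes named were 0.984 to 0.996. Arrays of a preparation are not independent, so these values describe the arrays only.

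Other genes of the type 1 program gave 1 gene called higher of 46 measured, Cxcr6, and 0 called lower, beside 0.12% and 0.015% of all genes. The KO minus WT difference was above 0 in 36 of 46, beside 43.2% of all genes. An unadjusted p under 0.05 was found in 18 of 46, all higher, and 14 of 46 had every KO array above every WT array, beside the 5.65% and 6.67% of all genes given above. Their median KO minus WT difference was 0.54 log2, with 0.99 in KO 1 and 0.12 in KO 2. Cxcr6, the receptor of Cxcl16, had a log2 level of 8.74 ± 0.42 in KO and 6.76 ± 0.18 in WT (SD, n = 4 each) and rose by 1.98 (SE 0.28, limma adjusted p = 0.014), or 2.34 in KO 1 and 1.63 in KO 2. That call was lost when WT 2A was left out (adjusted p = 0.0506). It was lost as well when the whole WT 1 preparation (adjusted p = 0.0846) or the whole WT 2 preparation (adjusted p = 0.142) was dropped. In KO 2 alone 4 of the 46 were called higher than WT, again beside 0.687% of all genes: Cxcr6, Prdm1, Il18rap and Iigp1.

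Among 5 surface receptors of Th1 cells, Cxcr6 rose, and 4 had an unadjusted p under 0.05, Cxcr6 among them, all higher, beside 5.65% of all genes. Cxcr3, the chemokine receptor whose gene T-bet activates, was at 1.41 log2 (SE 0.39, limma adjusted p = 0.384), 2.04 above WT in KO 1 and 0.78 in KO 2. Both KO 2 arrays lay above all WT arrays, and KO 2 against WT was not called (limma adjusted p = 0.112). The part of Tbx21 in these levels was not tested. Havcr2, the inhibitory receptor TIM-3, was at 1.12 (SE 0.32, limma adjusted p = 0.423). It was among 4 of these 5 receptors with every KO array above every WT array, beside 6.67% of all genes.

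Of 10 genes of type 1 cytokine signalling limma called 0 and 1 had an unadjusted p under 0.05, higher in KO, beside 5.65% of all genes. That gene, Il18rap, encodes the signalling chain of the IL-18 receptor and stood at 1.37 log2 (SE 0.29, limma adjusted p = 0.139), 1.83 above WT in KO 1 and 0.90 in KO 2. After quantile normalization it was called (limma adjusted p = 0.015). Socs3 and Socs1, feedback inhibitors of cytokine receptors, had both KO 1 arrays above all other arrays. For Socs3 the differences from WT were 1.36 (KO 1) and 0.12 (KO 2). Socs1 differed from WT by 1.48 in KO 1 and -0.03 in KO 2, where 1 array lay below and 1 above all WT arrays.

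Of 10 other regulators of the Th1 program limma called 0, and 5 had an unadjusted p under 0.05, all higher, beside 5.65% of all genes. Prdm1, which encodes the repressor Blimp-1, was at 1.98 log2 (SE 0.35, limma adjusted p = 0.0564), Gadd45b, a stress-induced activator of p38 signalling, at 1.36 (SE 0.39, limma adjusted p = 0.411) and Bhlhe40, a basic helix-loop-helix factor that favours Ifng over Il10, at 0.91 (SE 0.27, limma adjusted p = 0.455). These 3 genes, named for the smallest p of the list, had every KO array above every WT array, beside 6.67% of all genes.

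Of 9 effector cytokines and chemokines limma called 0, and the median difference was 0.01. Ccl3, an inflammatory chemokine, had an unadjusted p under 0.05 and was at 1.99 log2 (SE 0.65, limma adjusted p = 0.561), 3.34 above WT in KO 1 and 0.64 in KO 2. Il2 was at -0.17 (SE 0.14) and Xcl1 at -0.30 (SE 0.24), each with a limma adjusted p of 0.701. Every KO array of Il2 lay below every WT array, as in 2.11% of all genes, and it was the only one of the 46 to do so. After quantile normalization Il2 was 0.09 above WT in KO 1.

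Genes that interferon gamma induces were read in the same arrays. Of 12 measured, limma called 0, 7 had an unadjusted p under 0.05 and 5 had every KO array above every WT array, against 5.65% and 6.67% of all genes. Iigp1, an interferon-inducible GTPase, was at 2.26 log2 (SE 0.55, limma adjusted p = 0.262), 3.50 above WT in KO 1 and 1.01 in KO 2. Gbp3 and Irgm1, of the same GTPase superfamily, were at 1.58 (SE 0.44, limma adjusted p = 0.384) and 1.51 (SE 0.43, limma adjusted p = 0.402). In KO 1 against WT, 7 of the 12 were called higher and 3 lower, beside 30.4% and 37.4% of all genes. The 3 lower genes were Cxcl9, a chemokine (-0.53, limma adjusted p = 0.0128), and Ciita and Nlrc5, activators of antigen presentation genes (-0.43, adjusted p = 0.0258, and -0.60, adjusted p = 0.0206). After quantile normalization 7 were called higher and 1 lower, beside 22.6% and 2686 of 19937 of all genes. The lower one was Nlrc5 (-1.11, limma adjusted p = 0.0013), while Cxcl9 (-0.24, adjusted p = 0.167) and Ciita (-0.14, adjusted p = 0.393) were not called. In KO 2 limma called Iigp1 alone of the 12 (adjusted p = 0.0061). Type I interferon induces these genes as well, and the part of either was not tested.

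**Figure D3:**
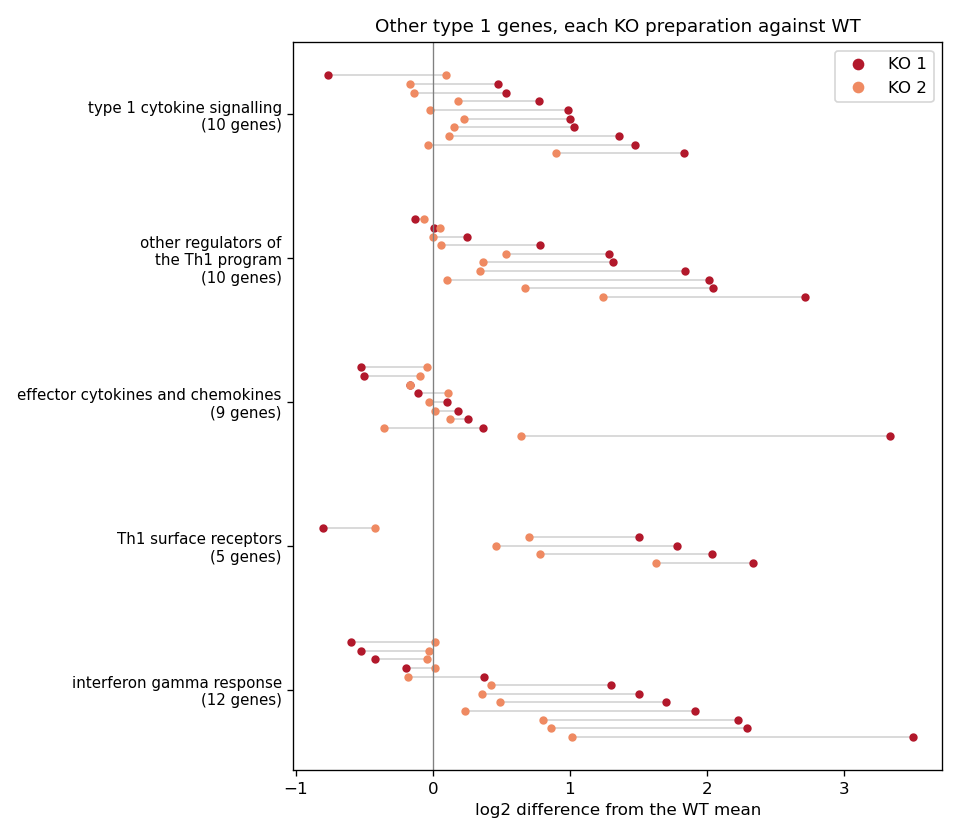
Log2 difference of KO 1 and KO 2 from the WT mean (horizontal axis) for 46 other type 1 genes in 5 lists; each line joins the 2 preparations of 1 gene. KO 1 lies to the right of KO 2 for most genes that differ from WT, and Ccl3 and Iigp1, at 3.34 and 3.50 in KO 1, reach farthest.

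The mean levels of markers of other cells, among them cells that make interferon gamma, overlapped between KO and WT. Of 8 measured markers of natural killer and innate lymphoid cells limma called 0, with 0 at an unadjusted p under 0.05 in either direction, and their mean log2 level was 5.40 to 5.53 in the KO and 5.42 to 5.58 in the WT arrays. For the CD8 T cell markers Cd8a and Cd8b1 the mean log2 level was 7.16 to 7.58 in KO and 7.40 to 7.73 in WT. For 4 B cell markers it was 6.01 to 6.22 in KO and 6.01 to 6.29 in WT, and for 7 myeloid markers 6.31 to 6.49 and 6.21 to 6.50. Limma called 0 of these KO against WT and 0 had an unadjusted p under 0.05, though Lyz2, a myeloid marker, had every KO array above every WT array. In the fit of preparations, 4 of all 21 markers were called higher in KO 1 than in WT and 7 lower, beside 30.4% and 37.4% of all genes, and 0 in KO 2. The 4 higher included Gzma of natural killer cells, the protease granzyme A (0.36 log2, limma adjusted p = 0.00986). The others were Cd79b of B cells (0.50, adjusted p = 0.0086), and Cd68 (0.49, adjusted p = 0.0229) and Lyz2 (0.45, adjusted p = 0.0267) of myeloid cells. The 7 lower were Klra8 and Tyrobp of natural killer cells (-0.34 and -0.44), Cd8a (-0.66), Cd79a and Pax5 of B cells (-0.44 and -0.57), and Cd14 and Csf1r of myeloid cells (-0.46 and -0.27). After quantile normalization 3 of the 21 were called higher in KO 1 than in WT and 1 lower, beside 22.6% and 2686 of 19937 of all genes. The 3 higher were Gzma (0.64, limma adjusted p = 0.0012), Lyz2 (0.69, adjusted p = 0.0040) and Itgam, a myeloid marker (0.28, adjusted p = 0.0401). The lower one was Cd79a (-0.32, limma adjusted p = 0.0393). The part of other cells in the KO 1 levels of the members was not tested. The 6 Treg markers Foxp3, Il2ra, Ctla4, Ikzf2, Cd4 and Cd3e had a mean log2 level of 10.5 to 11.2 in KO and 9.79 to 10.5 in WT. Their median difference was 0.70, with 0 called KO against WT and 3 higher at an unadjusted p under 0.05, beside 5.65% of all genes. In KO 1 against WT limma called 5 of the 6 higher, all but Cd3e, and 0 lower, beside 30.4% and 37.4% of all genes. After quantile normalization 3 were called higher in KO 1, beside 22.6%, and in KO 2 limma called 0 on either scale. Of these 6, the 3 genes Foxp3, Il2ra and Ctla4 had every KO array above every WT array, as Il12rb1, Hopx and Runx3 did, and their part in those differences was not tested.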

How the data were processed

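The authors deposited log2 expression values, 1 per probe set. The submitters' processing notes name Partek and RMA, without versions. RMA commonly corrects background, normalizes between arrays and summarises probes. The 28768 probe sets had no missing value and were used as deposited. All 8 columns were matched to samples, with 0 columns of per-sample values unused. Gene names came from the platform annotation: 21771 probe sets had 1 symbol, 1557 several and 5440 none there, and checking them against RefSeq gene identifiers changed 0 symbols. Genes with several probe sets kept the one with the highest mean over all arrays.

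Tests ran across all 19937 genes with limma 3.58.1, run in R 4.3.3, two-sided, using lmFit and then eBayes with its trend option. The random block for preparations had an estimated correlation of 0.617, and the moderated test 12.8 degrees of freedom. Fold differences are powers of the log2 difference. Tests were checked on simulated data.

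The members and lists were chosen with earlier results of these data known. Named are all members, Bcl6, called genes of the type 1 lists and up to 3 of each list with the smallest p, the gene most like each member, and markers; Lyz2 and the 3 Treg markers without overlap were singled out after their values were seen. Of 50 listed type 1 genes 46 were measured; the others were not analysed here. Alternatives were other treatments of preparations and letters, other normalizations and variance models, a minimum mean of log2 6, other rules for probe sets, and leaving out arrays or preparations.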

Additional observations from a re-analysis of the deposited data

How the results depend on the processing

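The count of members called KO against WT was 0 as reported and under all alternatives but 3. It was 2 with the replicate block (Hopx, adjusted p = 0.0337, and Il12rb1, adjusted p = 0.0175), 3 with the array SD as a covariate (Il12rb1, Hopx and Runx3) and 6 without both KO 2 arrays. The labels do not say what a shared number means, and with 2 numbers it cannot be checked; KO 1 minus KO 2 correlated with WT 1 minus WT 2 at 0.416 over genes, or 0.25 after quantile normalization. Quantile normalization reduced the members called KO 1 against KO 2 from 6 to 2.

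The count of all genes called, 27, became 113 with no random block, 52 on preparation means, 677 with the replicate block, 16 with a block by letter, 157 after quantile normalization, 14 with median centring, 66 with array weights and 2483 with the SD covariate, whose block correlation was -0.37. It was 144, 13378, 12 and 6 without both arrays of KO 1, KO 2, WT 1 and WT 2, and 15 to 57 without single arrays, where 15 was without WT 2A and 57 without WT 1B. The count of other type 1 genes called, 1, became 3 with no random block, on preparation means and after quantile normalization, 13 with the replicate block, 17 with the SD covariate, and 2 with array weights or a filter at log2 6. Without both KO 1, KO 2, WT 1 and WT 2 arrays it was 4, 34, 0 and 0, and without single arrays 0 to 2.

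The median member difference stayed above 0 throughout, at its lowest 0.07 with the SD covariate, and was 0.27 without WT 1A, against 0.43. The SD covariate, which is highest in KO 1 and cannot be told from a rise there alone, lowered Tbx21 from 0.91 to 0.13. Ifng went from 0.30 to 0.04 with it. The sign turned for Hlx and Il12rb2 after quantile normalization (0.0060 and 0.0053) and for Stat4 with the SD covariate (-0.20) and without both KO 1 arrays (-0.11). The cause was not tested.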
